A study of Rattus norvegicus with 24 samples.

Results

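The genes described here are 28 genes of cholesterol synthesis and of its control by SREBP2 in rat liver, of 15319 genes counted in each library. They were chosen by symbol, as the enzymes of the mevalonate and sterol pathway together with regulators and targets of SREBP2, and each was found under its Entrez gene ID in the count tables of both sexes. By role, 20 were enzymes and 8 were regulators or sterol transport genes. Liver RNA of 24 Sprague-Dawley rats, an outbred laboratory stock, had been sequenced in bulk with 1 library for each animal. The groups were 6 females that inhaled PCB 52, 6 sham females, 6 males that inhaled PCB 52 and 6 sham males. PCB 52 is a chlorinated biphenyl congener, which the animals breathed in a nose-only system for 4 h a day over 28 days, carried by filtered air drawn over coated beads at 12 L/min. The rats arrived at 28 days of age and acclimated for 8 days before training in the apparatus, and females started exposure when 42 days old, against 39 days for males. The labels do not say what sham animals breathed, and all rats ate the same stock diet and carried no named allele or other agent. The comparisons ask whether inhaled PCB 52 changed the pathway in either sex, whether the sexes differed in that response, and how the pathway differed between the sexes with and without PCB 52.

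The mevalonate pathway builds isoprenoids from acetyl-CoA, and its sterol branch folds squalene into lanosterol and trims lanosterol to cholesterol. When sterols in the endoplasmic reticulum run low, SCAP carries SREBP2 to the Golgi, where the proteases encoded by Mbtps1 and Mbtps2 cut it, and the released part enters the nucleus and binds promoters of the pathway genes. INSIG proteins hold SCAP in the endoplasmic reticulum when sterols are plentiful. Liver is a main site of this synthesis and supplies cholesterol to lipoproteins and bile acids.

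RefSeq promoter windows of the GRCr8 assembly were matched for 24 of the 28 genes, and not for Pmvk, Fdft1, Sqle and Stard4. Promoters are where SREBP2 and its partner NF-Y bind, so the bases upstream of 4 genes are shown. Fdps had the widest difference between the sexes, Insig1 is the feedback regulator, and Msmo1 and Cyp51 varied together across livers. The capitals mark CCAAT, the NF-Y box, read on either strand (ATTGG where it lies on the other strand), and TCACNCGAG, a form of the sterol regulatory element. The sequences run 5′ to 3′ on the strand of the gene and hold only bases before its outermost annotated start. For Fdps, Msmo1 and Cyp51 that is the whole searched window, and for Insig1 the last 43 bases of the window lay inside the annotated gene and are not printed. Fdps is at chr2:176804817-176805066 on the minus strand, Insig1 at chr4:8057813-8058019 on the minus strand, where LOC102546740 overlaps it, Msmo1 at chr16:29746863-29747112 on the plus strand and Cyp51 at chr4:30991443-30991692 on the plus strand.
Fdps: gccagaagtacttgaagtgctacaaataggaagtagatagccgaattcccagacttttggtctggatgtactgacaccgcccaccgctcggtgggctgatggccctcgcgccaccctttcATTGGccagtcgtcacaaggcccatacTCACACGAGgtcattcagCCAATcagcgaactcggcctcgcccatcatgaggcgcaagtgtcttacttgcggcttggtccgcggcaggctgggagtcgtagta
Insig1: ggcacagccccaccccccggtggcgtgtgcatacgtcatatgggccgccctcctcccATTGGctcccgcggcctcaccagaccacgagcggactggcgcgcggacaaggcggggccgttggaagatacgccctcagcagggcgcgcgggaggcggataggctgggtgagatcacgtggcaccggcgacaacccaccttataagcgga
Msmo1: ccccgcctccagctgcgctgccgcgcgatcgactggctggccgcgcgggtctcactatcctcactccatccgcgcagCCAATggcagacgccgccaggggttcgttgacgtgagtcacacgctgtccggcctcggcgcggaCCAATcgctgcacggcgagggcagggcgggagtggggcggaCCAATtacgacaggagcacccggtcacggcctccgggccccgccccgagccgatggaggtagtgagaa
Cyp51: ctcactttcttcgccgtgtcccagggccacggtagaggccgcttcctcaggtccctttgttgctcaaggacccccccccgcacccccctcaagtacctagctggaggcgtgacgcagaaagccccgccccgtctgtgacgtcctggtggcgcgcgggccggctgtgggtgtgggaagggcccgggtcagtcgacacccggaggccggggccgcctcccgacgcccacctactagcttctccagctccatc
The Fdps window held TCACACGAG 103 to 95 bases before the start, between an ATTGG and a CCAAT. The Msmo1 window held CCAAT at 3 places, the Insig1 window held ATTGG once, and the Cyp51 window had neither motif.

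Motifs were counted in the 250 bases before the start site that the RefSeq promoter table uses for each gene. Of the 24 windows, 11 lay wholly before the annotated gene, 9 partly inside it and 4 (Hmgcs1, Acss2, Srebf2 and Insig2) wholly inside it. CCAAT on either strand stood in 18 of 24 windows of these genes (75.0%), against 35.2% of the 12198 windows of measured genes. GGGCGG, the Sp1 box, stood in 19 of 24 (79.2%), against 51.8% of windows of measured genes. TCACNCGAG stood in 2 of 24 (8.33%), Fdps and, inside the annotated gene, Acss2, against 0.459%, and this spelling was added after the windows had been read. TCACNCCAC, the spelling searched first, stood in 0 of 24, against 1.00%. The motifs do not overlap in spelling, and a match is a description of letters in the window and not a bound site.

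Each library held 6994832 to 9185511 counts in all, so that a single count equalled 0.109 to 0.143 CPM, or counts per 1000000 library counts. The lowest count of any of the 28 genes in any library was 20, and all 28 passed the filter on low counts in every fit. Xist stood at 814 to 1388 CPM in the labelled females and at 3.08 to 10.8 CPM in the labelled males, and 3 Y-linked genes had no count in any female, so labels and transcripts of sex matched in all 24 libraries. Hepatocyte markers such as Alb summed to 113968 CPM or more in every library. Of 5 adipocyte markers, Plin1 and Lep were at 0 in all groups, and Adipoq in all but sham females. The sum of the 5, which include Fabp4 and Cidec, was 53.6 to 79.1 CPM in exposed females and 65.5 to 82.6 CPM in sham females. It was 52.8 to 68.7 CPM in exposed males and 45.9 to 71.9 CPM in sham males. In bulk liver, fewer cells of a type and less RNA for each cell cannot be told apart. The libraries of animals 13 to 16, all PCB 52-exposed and of both sexes, stood apart from the other 20 on the leading axis of variation within groups, with scores of 21.3 to 28.5 against -10.8 to 13.4. Ggps1 (r = 0.80), Idi1 (r = 0.65), Stard4 (r = 0.63) and Mbtps2 (r = 0.63) followed that axis most closely over 24 libraries, so values without these 4 animals are given beside several of the exposure results. The part of that axis in the exposure results was not tested.

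The pathway was higher in females than in males, in exposed and in sham animals alike. Together the 28 genes took 4795 to 7041 CPM in exposed females, 4392 to 6385 CPM in sham females, 2159 to 3441 CPM in exposed males and 1981 to 3216 CPM in sham males, so no female library overlapped a male one. Among exposed animals, 21 of the 28 genes were higher in females at an adjusted p under 0.05 (edgeR quasi-likelihood test) and 0 were lower, against 10.1% of all genes tested higher and 9.73% lower (19.9% in either direction). Among sham animals, 19 were higher and 0 lower, against 10.7% of all genes higher and 9.62% lower (20.3% in either direction). At an unadjusted p under 0.05 the counts were 22 in exposed animals, against 30.5% of all genes, and 23 in sham animals, against 30.6%. All 19 were also among the 21. The contrasts compared different livers, but both came from the same fit of all 24 libraries. They share its estimate of spread and are not independent tests. The median log2 fold change of females over males was 0.84 for the 28 genes in exposed animals and 0.70 in sham animals, where all genes tested had medians of -0.00 in both. Groups that did not overlap, with every female above every male, numbered 18 genes in exposed animals, against 5.89% of all genes, and 15 in sham animals, against 6.71%, while 0 lay the other way, against 3.96% and 4.8% of all genes. The fold change was above 0 for 25 genes in exposed animals, against 49.2% of all genes, and for 24 in sham animals, against 49.5%.

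**Figure D1:**
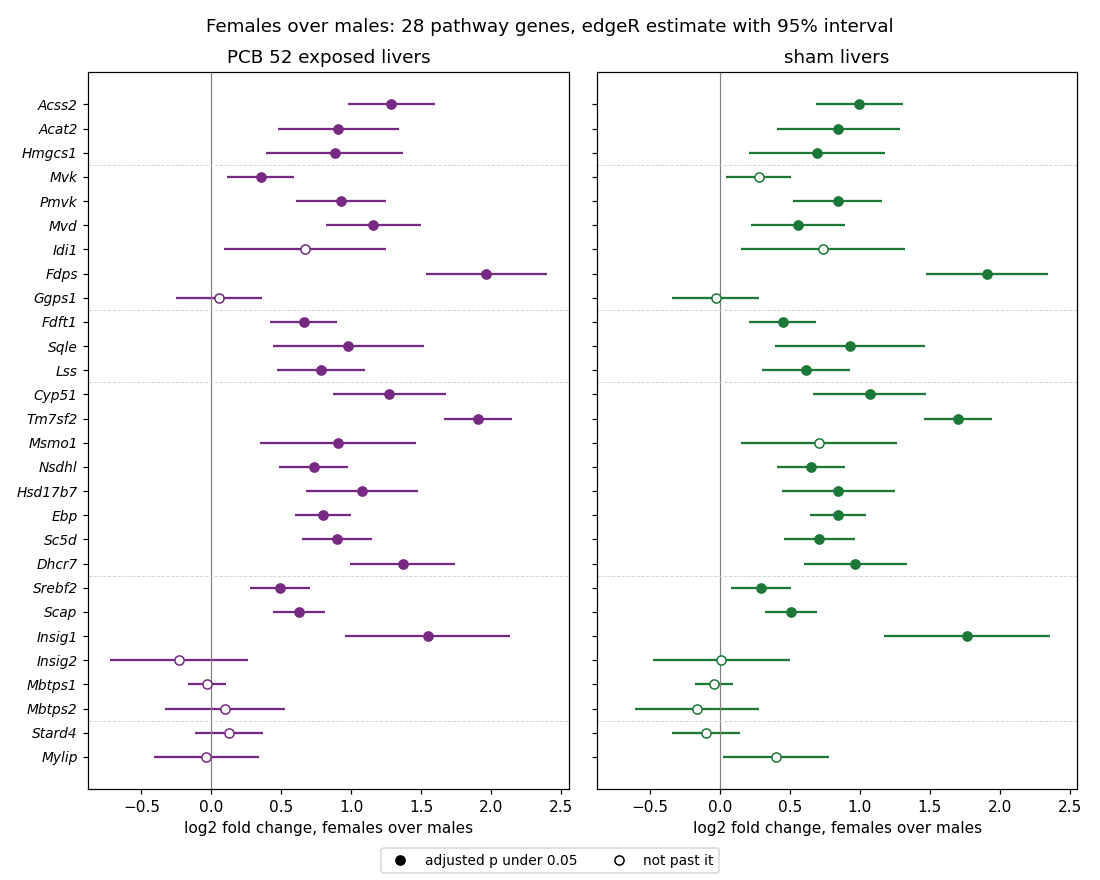
Log2 fold change of females over males (x axis) for the 28 genes (y axis, in pathway order, with dashed lines between steps), in exposed livers on the left and sham livers on the right. Points are edgeR estimates, bars their 95% intervals and filled points genes with an adjusted p under 0.05, which lie to the right of 0 in both panels.

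The first steps make HMG-CoA from acetyl-CoA, and all 3 of their genes were higher in females in both contrasts. Acss2, which makes acetyl-CoA from acetate, had a lowest, median and highest level of 136, 177 and 227 CPM in exposed females, 121, 130.2 and 175 CPM in sham females, 58.8, 65.3 and 92.8 CPM in exposed males and 48.4, 67.04 and 101 CPM in sham males. Every female was above every male of the same treatment. The log2 fold change of Acss2 over males was 1.28 ± 0.15 (SE) in exposed females (edgeR adjusted p = 2.63e-07) and 1.00 ± 0.15 in sham females (adjusted p = 1.44e-05). Hmgcs1, the HMG-CoA synthase of the cytosol, was 0.88 ± 0.24 higher in exposed females (adjusted p = 0.00913) and 0.69 ± 0.24 higher in sham females (adjusted p = 0.0395). Its groups overlapped, with 425 to 809 CPM in exposed females against 249 to 463 CPM in exposed males, and 379.6 to 894 CPM in sham females against 179.7 to 496 CPM in sham males. Acat2, the cytosolic thiolase that joins acetyl-CoA units, was 0.91 ± 0.21 higher in exposed females and 0.85 ± 0.21 higher in sham females.

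From mevalonate to the isoprenoid diphosphates, 4 of 6 genes were higher in exposed females and 3 of 6 in sham females. Fdps, the farnesyl diphosphate synthase at the branch point between sterols and other isoprenoids, had the largest log2 fold change of the 28 in both contrasts. It stood at 599, 724 and 1105 CPM (lowest, median and highest) in exposed females, 538, 688 and 781 CPM in sham females, 136, 157 and 295 CPM in exposed males and 121, 167 and 246 CPM in sham males. The lowest female of either treatment was above the highest male. Its difference was 1.96 ± 0.21, or 3.90-fold, in exposed females over exposed males (edgeR adjusted p = 1.37e-07) and 1.91 ± 0.21, or 3.75-fold, in sham females over sham males (adjusted p = 2.20e-07). Annotated pseudogenes share sequence with Fdps, Acat2, Idi1 and Nsdhl, and how the authors assigned such reads is not given in the sources used here, so their levels are uncertain. Idi1 overlaps the measured gene Wdr37, and the strand setting of the counting is not given either.

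Mvd, which decarboxylates mevalonate diphosphate, was at 19.7, 32.1 and 42.0 CPM in exposed females, 23.02, 24.7 and 31.7 CPM in sham females, 9.74, 13.8 and 16.7 CPM in exposed males and 11.04, 17.9 and 22.2 CPM in sham males. Females and males did not overlap within either treatment, and the log2 difference was 1.16 ± 0.17 in exposed animals (edgeR adjusted p = 4.32e-06) and 0.56 ± 0.16 in sham animals (adjusted p = 0.0133). Pmvk, the phosphomevalonate kinase, was 0.93 ± 0.16 and 0.84 ± 0.15 higher in exposed and sham females. Mvk, the mevalonate kinase, passed the test in exposed animals (0.35 ± 0.12, adjusted p = 0.0293) and not in sham animals (0.28 ± 0.11, adjusted p = 0.0873). Its exposed call was lost in 5 of 12 fits that each left out 1 exposed library (exposed female replicates 3, 4 and 5, and exposed male replicates 1 and 4). Idi1, the isopentenyl diphosphate isomerase, differed by 0.67 ± 0.28 in exposed animals (adjusted p = 0.102) and 0.73 ± 0.28 in sham animals (adjusted p = 0.0709), and passed in neither. Ggps1, which makes geranylgeranyl diphosphate for prenylation and so leaves the sterol route, was at 8.29 to 12.5 CPM in exposed females against 6.12 to 12.0 CPM in exposed males, and its log2 difference was 0.05 with a 95% interval of -0.25 to 0.36. In sham animals Ggps1 differed by -0.03, with an interval of -0.34 to 0.28.

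All 3 genes from squalene to lanosterol were higher in females in both contrasts. Fdft1, the squalene synthase, was higher by 0.66 ± 0.12 in exposed females and 0.45 ± 0.12 in sham females. Sqle, the squalene epoxidase that sets the pace of this branch, was at 47.1, 54.6 and 85.3 CPM in exposed females, 39.3, 54.7 and 87.9 CPM in sham females, 18.4, 27.6 and 42.6 CPM in exposed males and 13.9, 29.8 and 46.8 CPM in sham males. Sqle separated the sexes fully in exposed animals and overlapped in sham animals, with log2 differences of 0.98 ± 0.26 (edgeR adjusted p = 0.0084) and 0.93 ± 0.26 (adjusted p = 0.0119). Lss, the lanosterol synthase, was higher by 0.78 ± 0.15 in exposed females and 0.61 ± 0.15 in sham females.

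From lanosterol to cholesterol, 8 of 8 genes were higher in exposed females and 7 of 8 in sham females, Msmo1 being the exception at 0.71 ± 0.27 (edgeR adjusted p = 0.0674). Tm7sf2, a sterol C14 reductase, had the smallest adjusted p of the 28 in both contrasts. Its lowest, median and highest levels were 228, 302 and 391 CPM in exposed females, 256, 279 and 349.9 CPM in sham females, 68.4, 79.6 and 83.1 CPM in exposed males and 67.5, 89.3 and 109 CPM in sham males. No female library overlapped the male range, and the log2 difference was 1.90 ± 0.12 in exposed animals (adjusted p = 2.66e-13) and 1.70 ± 0.12 in sham animals (adjusted p = 3.1e-12).

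Ebp, the sterol isomerase known as the emopamil binding protein, was at 163, 198 and 253 CPM in exposed females, 153, 216 and 229 CPM in sham females, 101, 114 and 126 CPM in exposed males and 104, 109 and 129.8 CPM in sham males. Its differences of 0.80 ± 0.10 in exposed animals (edgeR adjusted p = 2.2e-07) and 0.84 ± 0.10 in sham animals (adjusted p = 8.71e-08) were smaller than those of Tm7sf2, and the groups again did not overlap. Dhcr7, the last reductase of one of the routes to cholesterol, was at 117, 164 and 218 CPM in exposed females, 105, 141 and 207 CPM in sham females, 46.0, 58.8 and 77.5 CPM in exposed males and 55.7, 66.3 and 102 CPM in sham males. Dhcr7 separated the sexes under both treatments, by 1.37 ± 0.18 in exposed animals (adjusted p = 2.61e-06) and 0.97 ± 0.18 in sham animals (adjusted p = 0.000234).

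Sc5d, the lathosterol desaturase, ran from 438 to 647 CPM in exposed females with a median of 483, from 379.5 to 566 in sham females with a median of 430.4, from 199.7 to 334.2 in exposed males with a median of 262, and from 216 to 321 in sham males with a median of 278. Its log2 difference was 0.90 ± 0.12 in exposed animals (edgeR adjusted p = 1.77e-06) and 0.71 ± 0.12 in sham animals (adjusted p = 5.77e-05), without overlap. Cyp51, the lanosterol demethylase, was higher by 1.27 ± 0.20 in exposed females and 1.07 ± 0.19 in sham females. Nsdhl, a sterol dehydrogenase of the demethylation complex, ran from 349 to 467 CPM in exposed females, 287 to 407 CPM in sham females, 176 to 307 CPM in exposed males and 151 to 240.3 CPM in sham males, and was higher by 0.73 ± 0.12 and 0.65 ± 0.12 in exposed and sham females. Hsd17b7, the ketoreductase of the same complex, was higher by 1.08 ± 0.19 and 0.85 ± 0.20.

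Among the 6 genes of SREBP2 and its processing, Srebf2, Scap and Insig1 were higher in females in both contrasts, and Insig2, Mbtps1 and Mbtps2 passed in neither. Srebf2, which encodes SREBP2, was at 80.1, 95.6 and 119.6 CPM in exposed females, 88.6, 101 and 110.5 CPM in sham females, 51.1, 72.2 and 75.4 CPM in exposed males and 65.9, 80.5 and 99.0 CPM in sham males. It separated the sexes in exposed animals only, by 0.49 ± 0.11 (edgeR adjusted p = 0.000837), and its difference in sham animals was 0.30 ± 0.11 (adjusted p = 0.0445). That sham difference lost its call without the low-count filter and in 9 of 12 fits that each left out 1 sham library. Hmgcs1 lost its sham call without the filter and in 7 of the 12. Scap was at 117, 124 and 163 CPM in exposed females, 115.2, 122 and 139 CPM in sham females, 73.7, 79.5 and 89.997 CPM in exposed males and 73.1, 84.9 and 101 CPM in sham males, without overlap. Its difference was 0.62 ± 0.09 in exposed animals (adjusted p = 3.39e-06) and 0.51 ± 0.09 in sham animals (adjusted p = 7.58e-05).

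The INSIG genes, which encode proteins of like function, had unlike values in this contrast. Insig1, itself a target of SREBP2, was at 318, 487 and 562 CPM in exposed females, 389, 556 and 988 CPM in sham females, 94.5, 156 and 252 CPM in exposed males and 69.2, 193 and 246 CPM in sham males. Every female was above every male, by 1.54 ± 0.28 in exposed animals (edgeR adjusted p = 0.000314) and 1.76 ± 0.29 in sham animals (adjusted p = 7.7e-05). Insig2 was at 89.7, 118 and 130.3 CPM in exposed females, 114, 135 and 154 CPM in sham females, 75.6, 118 and 227 CPM in exposed males and 74.5, 121 and 217 CPM in sham males. All groups of Insig2 overlapped, males spanned the wider range, and the difference was -0.23 in exposed animals with a 95% interval of -0.72 to 0.26 and 0.01 in sham animals with an interval of -0.48 to 0.50. Mbtps1, the site-1 protease, lay between 82.3 and 109.5 CPM in all 24 libraries, and its intervals of -0.17 to 0.11 in exposed animals and -0.18 to 0.09 in sham animals were the narrowest of the genes that did not pass. Mbtps2, the site-2 protease, lay between 2.26 and 7.01 CPM and differed by 0.10 ± 0.21 and -0.16 ± 0.22.

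Neither sterol transport gene passed. Stard4, a cytosolic sterol carrier, differed by 0.13 ± 0.12 in exposed animals and -0.10 ± 0.12 in sham animals. Mylip, a ubiquitin ligase that marks lipoprotein receptors for breakdown and is a target of LXR rather than SREBP2, differed by -0.04 ± 0.18 in exposed animals and 0.40 ± 0.19 in sham animals (edgeR adjusted p = 0.14). Without animals 13 to 16, 20 of the 21 calls in exposed animals held and Msmo1 was lost.

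**Figure D2:**
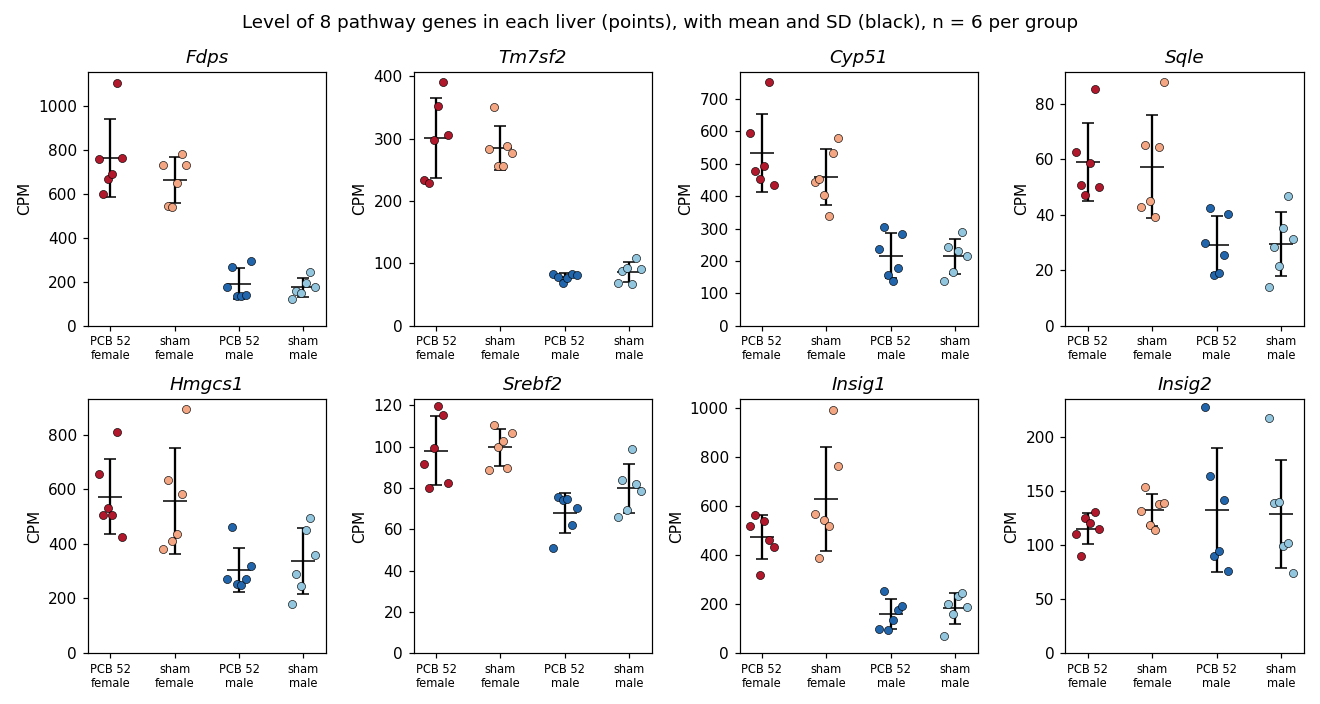
CPM (y axis, from 0) of 8 of the genes in each liver, by group on the x axis, with the mean and SD of 6 livers in black. Females lie above males without overlap for Fdps and Tm7sf2, while Insig2 levels of females lie within the male ranges.

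Sex, age at the start of exposure and count table cannot be told apart in these contrasts, since all females began 3 days later and were counted in their own table. Among 10 markers of Kupffer cells and macrophages, 6 were higher in exposed females (10.1% of all genes) and 7 in sham females (10.7% of all genes), with 0 lower in either. Their sum was 703 to 948 CPM in exposed females against 623 to 724 CPM in exposed males, and 802 to 1046 CPM in sham females against 608 to 750 CPM in sham males. Of 7 periportal hepatocyte markers, 4 were lower and 1 higher in exposed females (9.73% and 10.1% of all genes). In sham females 2 of these 7 markers were lower and 1 higher (9.62% and 10.7% of all genes). Their sum was 7591 to 11213 CPM in exposed females against 9110 to 11233 CPM in exposed males, and 9238 to 11897 CPM in sham females against 10186 to 12543 CPM in sham males. Of 7 tested pericentral hepatocyte markers, 1 was higher and 0 lower in exposed females, and 0 higher and 1 lower in sham females. Of 8 hepatocyte markers, 1 was higher and 2 lower in exposed females, and 1 higher and 1 lower in sham females. Of 6 endothelial cell markers, 0 passed in either contrast. The part of these cell markers in the sex difference was not tested.

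None of the 28 genes passed an adjusted p under 0.05 in PCB 52-exposed over sham females (edgeR), and neither did any of the 10251 genes tested (0%). DESeq2 passed 28 genes in the same libraries, 0 of them among the 28 described here, and limma-voom passed 0 genes. At an unadjusted p under 0.05, 2 of the 28 were higher and 0 lower, against 4.64% of all genes higher and 5.32% lower, or 9.96% in either direction. The log2 fold change of exposed over sham females was above 0 for 21 of the 28, against 50.7% of all genes, with a median of 0.16 against 0.00. Without exposed female replicate 5 (animal 22) the count was 16 and the median 0.05, and without animals 13 to 16 they were 24 and 0.12. The count at an unadjusted p under 0.05 was 4 without animals 13 to 16 and ranged from 2 to 8 when 1 library was left out, with 8 without sham female replicate 6. The share of all genes at that mark was not counted in these reduced fits. By role, 17 of 20 enzymes and 4 of 8 regulator and transport genes were above 0, with medians of 0.21 and -0.01. No gene separated the groups, against 0.332% of all genes that did.

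Acss2 had the smallest p in females, with 136, 177 and 227 CPM (lowest, median and highest) in exposed females and 121, 130.2 and 175 CPM in sham females. The groups overlapped, and 5 of 6 exposed females were above the sham mean. Its log2 fold change was 0.34 ± 0.12, with an unadjusted p of 0.0130 and an edgeR adjusted p of 0.428. Mbtps2 was at 4.35, 4.82 and 5.79 CPM in exposed females and 2.26, 3.95 and 4.77 CPM in sham females, with 6 of 6 exposed females above the sham mean. The fold change was 0.41 ± 0.18 (unadjusted p = 0.0392, edgeR adjusted p = 0.486). Nsdhl was at 349, 362 and 467 CPM in exposed females and 287, 331 and 407 CPM in sham females. All 6 exposed females were above the sham mean, with a fold change of 0.22 ± 0.11 (adjusted p = 0.523).

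Both INSIG genes lay on the other side of 0 in females. Insig1 was at 318, 487 and 562 CPM in exposed females and 389, 556 and 988 CPM in sham females, and all 6 exposed females were below the sham mean. Its fold change was -0.41 ± 0.20 (edgeR adjusted p = 0.534), and it was -0.23 without sham female replicate 5, which held the highest level. Insig2 was at 89.7, 118 and 130.3 CPM in exposed females and 114, 135 and 154 CPM in sham females, with 6 of 6 exposed females below the sham mean and a fold change of -0.20 ± 0.09 (adjusted p = 0.506). Without animals 13 to 16 the values were -0.52 for Insig1 and -0.11 for Insig2.

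The remaining named genes lay near 0 or had wide intervals in females. Srebf2 was at 80.1, 95.6 and 119.6 CPM in exposed females and 88.6, 101 and 110.5 CPM in sham females, a fold change of -0.02 with a 95% interval of -0.22 to 0.18. Sqle differed by 0.06, with an interval of -0.34 to 0.46, and Hmgcs1 by 0.06, with an interval of -0.36 to 0.48. Idi1 was at 44.6, 61.2 and 102 CPM in exposed females and 43.1, 55.3 and 101 CPM in sham females, a fold change of 0.20 ± 0.23, which was 0.12 without animals 13 to 16, 0.073 without exposed female replicate 5 and 0.39 without sham female replicate 6. Cyp51 was at 435, 484 and 752 CPM in exposed females and 337, 448 and 579 CPM in sham females, a fold change of 0.23 ± 0.14 (edgeR adjusted p = 0.588). Over all 28 genes the 95% intervals reached no higher than 0.79 and no lower than -0.84.

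In exposed over sham males none of the 28 genes and none of the 10180 genes tested passed (0%, edgeR). DESeq2 passed 1 gene, which was not among the 28, and limma-voom passed 0. At an unadjusted p under 0.05, 1 of the 28 was lower and 0 higher, against 2.85% of all genes lower and 2.9% higher, or 5.75% in either direction. The fold change was above 0 for 16 of the 28, against 51.0% of all genes, with a median of 0.01. Without animals 13 to 16, 5 of the 28 were above 0 and the median was -0.08. The median kept its sign in 6 of 12 fits that each left out 1 library. It was lowest without sham male replicate 1, at -0.063 with 10 of the 28 above 0, and 9 were above 0 without exposed male replicate 2. The count at an unadjusted p under 0.05 ranged from 0 to 4 when 1 library was left out, with 4 without sham male replicate 1. The share of all genes at that mark was not counted in these reduced fits. No gene separated exposed from sham males, against 0.236% of all genes (0.0589% higher and 0.177% lower).

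Mvd had the smallest p in males, with 9.74, 13.8 and 16.7 CPM in exposed males and 11.04, 17.9 and 22.2 CPM in sham males. All 6 exposed males were below the sham mean, and the log2 fold change was -0.34 ± 0.16 (unadjusted p = 0.0460, edgeR adjusted p = 0.829). Srebf2 was at 51.1, 72.2 and 75.4 CPM in exposed males and 65.9, 80.5 and 99.0 CPM in sham males. Its 6 exposed males were also all below the sham mean, with a fold change of -0.22 ± 0.11 (adjusted p = 0.829). Mylip was at 4.98, 8.64 and 10.1 CPM in exposed males and 3.89, 5.64 and 8.49 CPM in sham males, a fold change of 0.39 ± 0.20. Stard4 was at 48.2, 55.8 and 70.7 CPM in exposed males and 47.7, 68.3 and 84.3 CPM in sham males, a fold change of -0.23 ± 0.12 with 5 of 6 exposed males below the sham mean.

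Insig1 and Insig2 varied widely among males. Insig1 was at 94.5, 156 and 252 CPM in exposed males and 69.2, 193 and 246 CPM in sham males, a fold change of -0.19 with a 95% interval of -0.90 to 0.53. Insig2 was at 75.6, 118 and 227 CPM in exposed males and 74.5, 121 and 217 CPM in sham males, a fold change of 0.04 with an interval of -0.68 to 0.77, and the sign turned to -0.32 without animals 13 to 16. Sqle differed by 0.01 ± 0.30, Idi1 by 0.27 ± 0.31, Hmgcs1 by -0.13 ± 0.25 and Cyp51 by 0.03 ± 0.23. At this spread, fold changes as large as 0.53 in Cyp51 or 0.94 in Idi1 lay within their intervals.

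**Figure D3:**
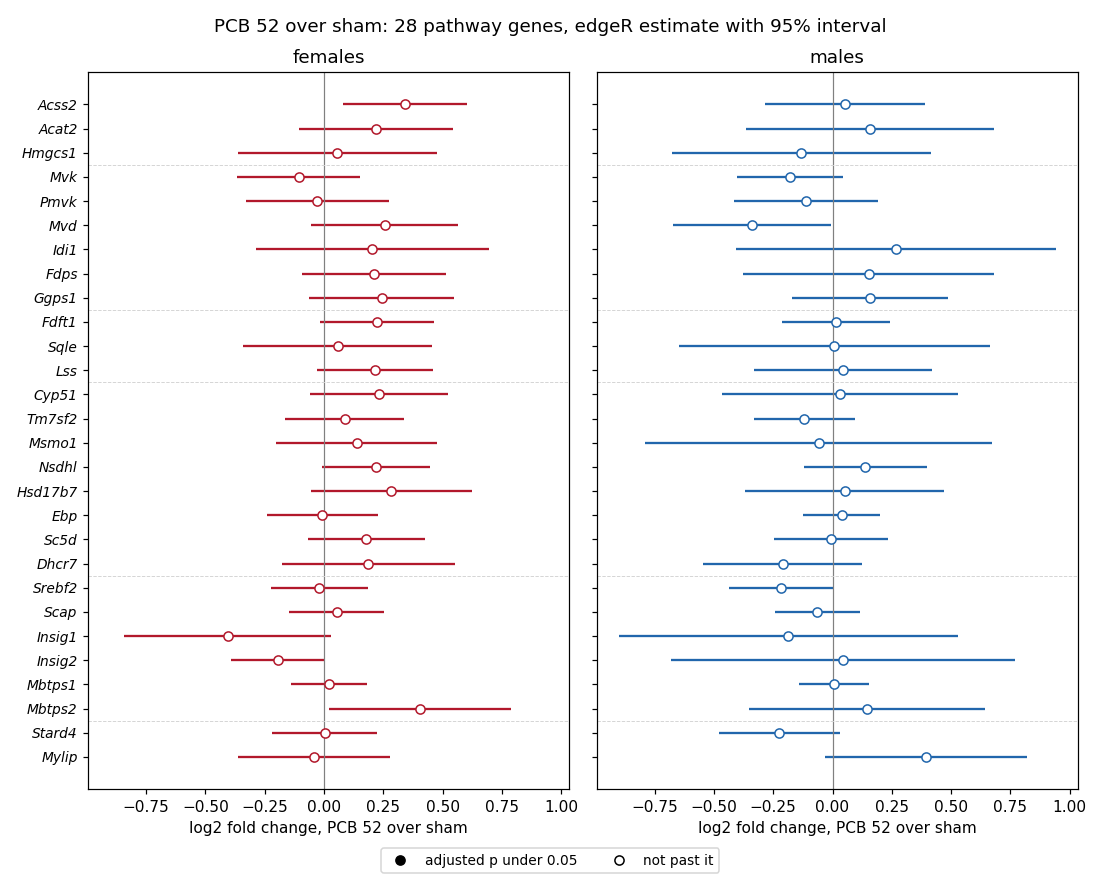
Log2 fold change of PCB 52 over sham (x axis) for the 28 genes (y axis, in pathway order), in females on the left and males on the right, with edgeR 95% intervals. All points are open because no gene reached an adjusted p under 0.05, and in females 21 points lie right of 0.

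None of the 28 genes passed the test of a difference in response between the sexes in the edgeR fit of all 24 libraries, nor did any of 10535 genes (0%), and DESeq2 and limma-voom also passed 0. At an unadjusted p under 0.05 there was 1 pathway gene, against 2.27% of all genes, 0.94% with a positive and 1.33% with a negative difference. That gene was Mvd, whose female response minus male response was 0.60 ± 0.23 (unadjusted p = 0.0159). It stood at 0.26 ± 0.15 in females and -0.34 ± 0.16 in males. Mylip had a difference of -0.44 ± 0.26, Dhcr7 of 0.40 ± 0.25 and Acss2 of 0.29 ± 0.21. Insig1 differed by -0.22 ± 0.39, Insig2 by -0.24 ± 0.34, Srebf2 by 0.20 ± 0.15, Sqle by 0.05 ± 0.36, Idi1 by -0.06 ± 0.39, Hmgcs1 by 0.19 ± 0.33 and Cyp51 by 0.20 ± 0.27. The difference was above 0 for 23 of the 28, against 48.9% of all genes, with a median of 0.14. With 1 library left out the count ranged from 19 (without exposed female replicate 5) to 24, and the median from 0.052 (without sham male replicate 4) to 0.21. In their own tables, 13 genes were above 0 in both sexes, 4 below 0 in both and 11 of opposite sign.

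Averaged over both sexes, 12 exposed against 12 sham animals gave 0 of 28 genes at an adjusted p under 0.05 and 0% of all genes (edgeR), while DESeq2 passed 105 genes and 0 of the 28, and limma-voom passed 0. At an unadjusted p under 0.05, 1 of the 28 was higher and 0 lower, against 8.04% and 7.38% of all genes. The count ranged from 0 to 4 when 1 library was left out, with 4 without exposed male replicate 3. The share of all genes at that mark was not counted in these reduced fits. With all libraries the 1 gene was Nsdhl, at 0.18 ± 0.08 (edgeR unadjusted p = 0.0396, adjusted p = 0.301). In 10 of 12 exposed animals Nsdhl exceeded the mean of sham animals of the same sex. Its value was 0.10 when animals 13 to 16 were left out. Ggps1 averaged 0.20 ± 0.11 and Mbtps2 0.28 ± 0.15, and without animals 13 to 16 they were 0.05 and 0.06. Acss2 averaged 0.20 ± 0.11. Insig1 averaged -0.29 ± 0.20, lower than the mean of same-sex sham animals in 10 of 12 exposed animals, and Srebf2 averaged -0.11 ± 0.07, also with 10 of 12 below. Insig2 averaged -0.07 ± 0.17, Sqle 0.03 ± 0.18, Idi1 0.24 ± 0.20, Hmgcs1 -0.04 ± 0.17 and Cyp51 0.13 ± 0.14. Without animals 13 to 16, Idi1 was 0.051, Cyp51 0.039, Sqle -0.037, Srebf2 -0.046 and Acss2 0.18. In the same fit Hmgcs1 was -0.12, Insig2 -0.22 and Insig1 -0.38.

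Within groups the levels of the enzyme genes varied together from animal to animal. After the group mean of log2 CPM was removed, the median pairwise correlation over 24 libraries was 0.55 among the 20 enzymes, with 57.4% of 190 pairs above 0.5. Among all genes tested the median was -0.00 and 3.25% of pairs were above 0.5. The 8 regulator and transport genes had a median of -0.02 among themselves and 0.17 with the enzymes. These values share the same libraries, depth and animals, and they are descriptions without a test. The enzyme median was 0.62 in females, 0.63 in males, 0.64 in exposed animals and 0.55 in sham animals. It was 0.55 without animals 13 to 16 and 0.66 after the leading axis had been removed from all libraries.

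Sqle followed the mean of the other 27 genes most closely (r = 0.92), then Cyp51 (r = 0.91), Idi1 (r = 0.89) and Msmo1 (r = 0.88). The closest pair was Sqle and Cyp51 (r = 0.93), and Hmgcs1 paired with Msmo1 (r = 0.92). Insig1 followed the mean with r = 0.63 over all livers, 0.80 in males and 0.37 in females. Srebf2 followed it with r = 0.33, and Mvd was its nearest gene (r = 0.68). Insig2 (r = -0.13), Mbtps1 (r = -0.28), Mylip (r = 0.09) and Scap (r = 0.14) had the lowest values over 24 livers. Insig2 ran with the mean in females (r = 0.62) and against it in males (r = -0.33). Within the enzyme set Tm7sf2 (r = 0.34), Ggps1 (r = 0.31) and Pmvk (r = 0.39) followed the mean least.

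**Figure D4:**
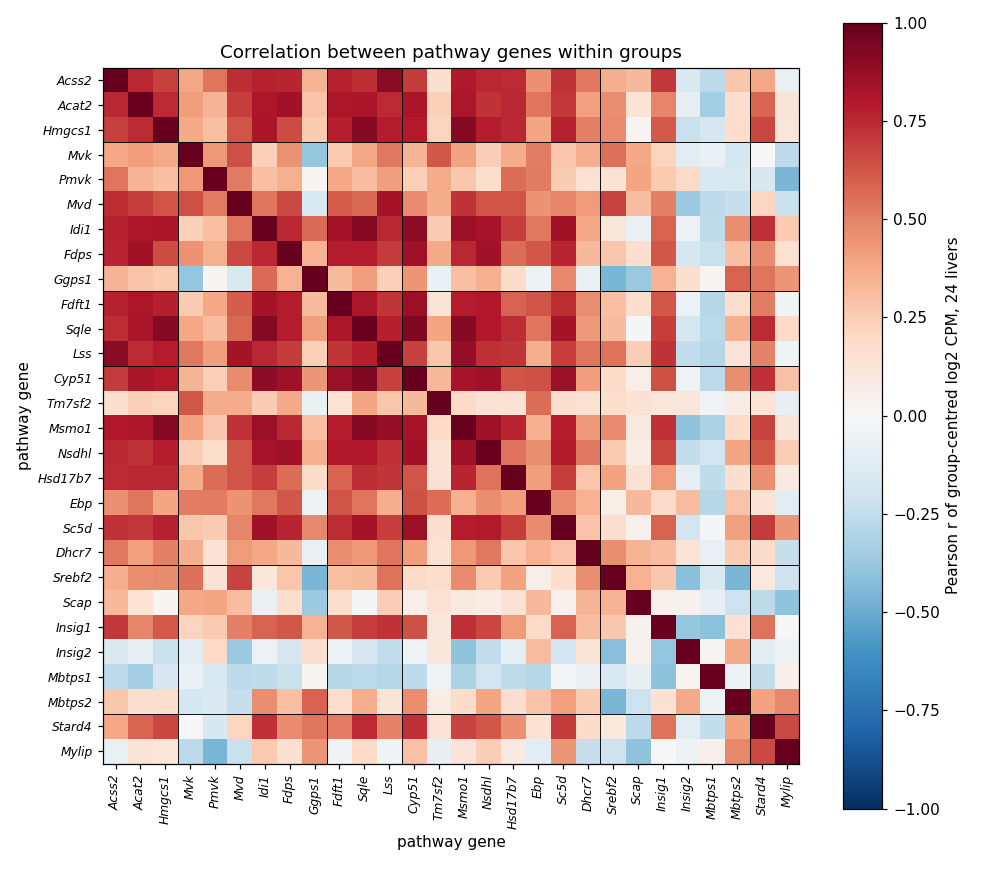
Pearson correlation (colour) of log2 CPM with group means removed, between each pair of the 28 genes over 24 livers, with genes in pathway order on both axes. The enzyme block is mostly red, the median of its pairs being 0.55, and the rows of Insig2 and Mbtps1 are mostly pale or blue. The Mylip row is mixed, from -0.46 with Pmvk to 0.66 with Stard4.

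The shared variation can be read animal by animal. In exposed female animal 22, 19 of 20 enzymes were above their group mean and the enzyme mean was 0.40 log2 units above it. Exposed male animal 15 had 19 of 20 above (0.34), exposed male animal 23 had 18 (0.26), sham male animal 7 had 17 (0.32), sham male animal 9 had 18 (0.31) and sham female animal 12 had 17 (0.30). At the low end, sham male animal 1 had 2 of 20 above and an enzyme mean of -0.45, with Sqle 0.93 and Insig1 1.24 log2 units below the group mean. Exposed male animal 19 had 1 of 20 above (-0.30), exposed female animal 18 had 2 (-0.25), exposed female animal 16 had 1 (-0.24) and sham female animal 6 had 0 (-0.25). Since the mean of each group had been removed, every group must hold animals on both sides of it. In animal 1, Insig2 stood at its sham male maximum of 217 CPM while Insig1 stood at its minimum of 69.2 CPM.

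The spread within groups differed between genes. The SD of log2 CPM within groups was 0.51 for Insig1, 0.50 for Idi1, 0.48 for Msmo1 and 0.47 for Sqle, at the 91.98, 91.2, 90.3 and 89.2 percentiles of all genes tested. Mbtps1 had an SD of 0.09, at the 0.835 percentile, and Scap one of 0.15, at the 17.3 percentile.

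**Figure D5:**
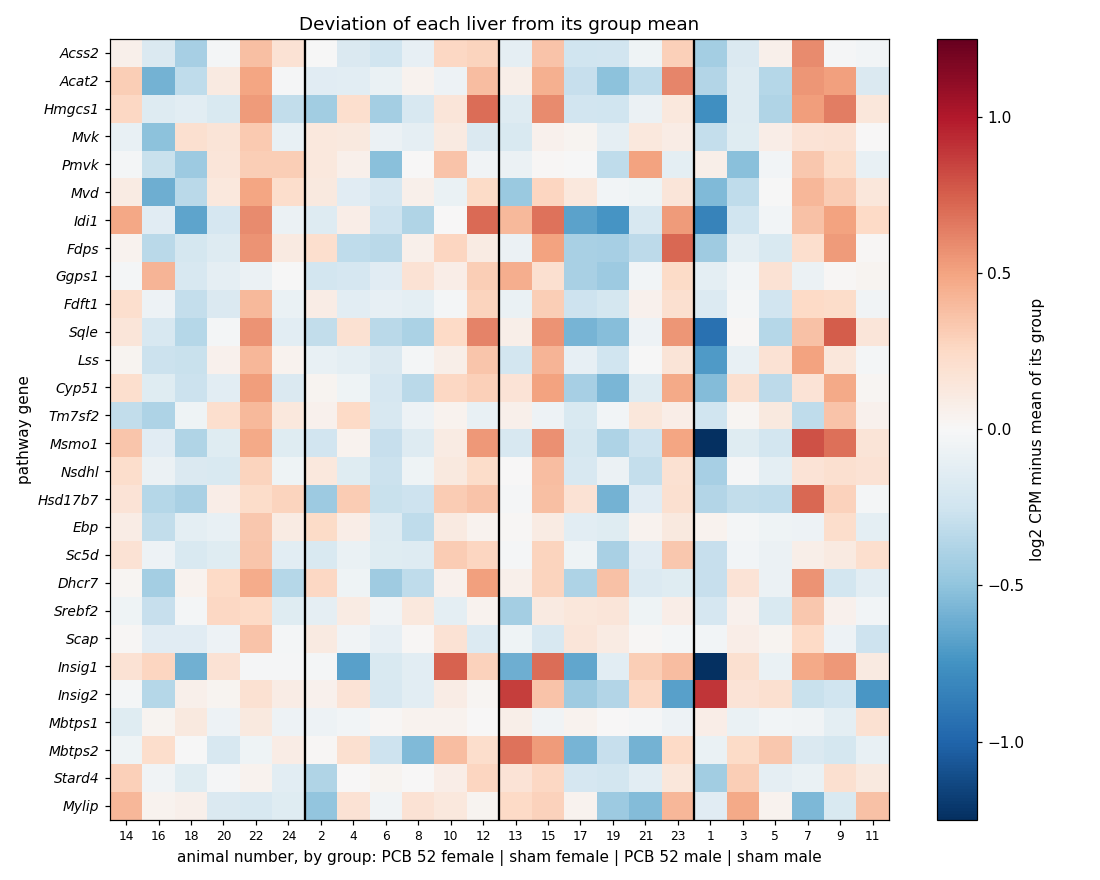
Log2 CPM minus the mean of the group (colour) for the 28 genes (rows, in pathway order) in each of 24 livers (columns, by animal number within group). Whole columns are red in animals 22, 15, 7 and 9 and blue in animals 1, 18 and 19 over most enzymes.

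Genes of neighbouring pathways were read from lists of their own. Of 15 genes of SREBP1 and fatty acid synthesis, 14 were above 0 in exposed over sham females, with a median log2 fold change of 0.54 and 9 higher at an unadjusted p under 0.05 (4.64% of all genes), and 0 passed after adjustment (edgeR). Acly, which supplies cytosolic acetyl-CoA to both pathways, was at 0.67 ± 0.13 (adjusted p = 0.172), Fasn at 0.61 ± 0.16 and Acacb at 0.56 ± 0.16. In males 13 of 15 were above 0 with a median of 0.19, and 0 reached an unadjusted p under 0.05. In females over males, 12 of 15 were higher in exposed animals (10.1% of all genes), and 10 were higher and 1 lower in sham animals (10.7% and 9.62% of all genes). Across 24 livers the group-centred level of Acly followed the mean of the 28 genes (r = 0.72), as did Me1 (r = 0.58), Fasn (r = 0.55) and Fads1 (r = 0.53), while Scd had r = -0.09.

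Of 15 genes of LXR, sterol export and esterification, 4 were higher in exposed females over exposed males (10.1% of all genes) and 6 in sham females over sham males (10.7% of all genes), with none lower. Lipa, the lysosomal acid lipase, was higher by 1.07 ± 0.11 and 0.93 ± 0.11, Npc2 by 0.57 ± 0.09 and 0.74 ± 0.09 and Npc1 by 0.56 ± 0.10 and 0.59 ± 0.10, the exposed value first. Of 13 measured genes of the non-sterol isoprenoid branch, 1 was higher and 2 lower in exposed females (10.1% and 9.73% of all genes). In sham females 3 of the 13 were higher and 1 lower (10.7% and 9.62% of all genes). Of 4 tested genes that turn sterols into bile acids and oxysterols, Cyp27a1 was higher by 0.47 ± 0.10 and Cyp7b1 lower at -1.06 ± 0.23 in exposed females, with 0.53 ± 0.10 and -0.96 ± 0.24 in sham females. Of 10 genes of INSIG and SREBP turnover, 0 passed in exposed females (19.9% of all genes in either direction). In sham females 2 of the 10 were higher and 0 lower (10.7% and 9.62% of all genes). In exposed over sham females 5 of these 10 genes were above 0. At an unadjusted p under 0.05, 0 were higher and 1 lower (4.64% and 5.32% of all genes). The lower gene was Ube2g2, a ubiquitin-conjugating enzyme of the degradation route for INSIG, at -0.45 ± 0.11 (unadjusted p = 0.00056, edgeR adjusted p = 0.317). In exposed over sham animals 0 genes of these lists passed after adjustment in either sex (edgeR).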

How the data were processed

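Liver RNA of 24 rats was sequenced, 1 library for each animal, and the authors deposited whole-number read counts for each gene under Entrez gene IDs, in 1 table for each sex. Per the submitters' processing notes FastQC and HISAT2 were used with the rn6 genome. The counting tool, its strand setting and the annotation are not given in the sources used here. Per the labels' protocols, messenger RNA was enriched by poly(A) capture or rRNA removal, without saying which. Groups came from the sex and treatment labels, and replicate numbers follow accession order. Whether animals shared a cage or litter is not stated, and the tests treated each animal as independent. If cage mates or litter mates resembled one another, the p-values could be too small.

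Counts were tested with edgeR 4.0.16 in R 4.3.3 (TMM scaling, filterByExpr with a minimum count of 10 and a minimum total of 15, robust quasi-likelihood fit). P-values were Benjamini-Hochberg adjusted over all genes tested, with a threshold of 0.05. Exposure was fitted in each sex table, and the sex contrasts, the difference of responses and the average over sexes in all 24 libraries. SE is the absolute log2 fold change over the root of F, and intervals are 95%. Levels are CPM, scaled by the library total, and SDs over 6 animals. The script was tested on simulated data. Correlations used log2 CPM with a prior count of 2 and group means removed. The alternatives were DESeq2 1.42.0 and limma 3.58.1 voom with quality weights for each library, called limma-voom here. Others were different filters and scalings, each library left out and the libraries without animals 13 to 16. The 28 genes and all lists were chosen with earlier results of these data known. In each contrast, genes with an unadjusted p under 0.05 (at most 8, at least 4 by smallest p) were named with full values, Insig1, Insig2, Srebf2, Sqle, Idi1, Hmgcs1 and Cyp51 were given in every exposure contrast, and other genes of the 28 were added by role after their values were seen. Promoter letters came from RefSeq (GRCr8) and were not placed on rn6. Figures were drawn with matplotlib 3.10.9.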

Additional observations from a re-analysis of the deposited data

Results flagged for a closer look

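In 10 of 112 combinations of gene and group, 1 animal stood far from the other 5, its gap being over 0.625 of the range of the group. Chance gives about 1 in 20 such groups, and the genes share animals. Sham female animal 12 was highest for Acat2 at 58.6 CPM (the others 37.5 to 42.1 CPM), for Lss at 168 CPM (114 to 131 CPM) and for Msmo1 at 245 CPM (131 to 172 CPM). Exposed female animal 22 was highest for Fdps at 1105 CPM (599 to 763 CPM) and for Scap at 163 CPM (117 to 126 CPM). Exposed male animal 15 was highest for Hmgcs1 at 463 CPM (249 to 319.7 CPM), and exposed female animal 16 for Ggps1 at 12.5 CPM (8.29 to 8.86 CPM). Sham female animal 4 was highest for Tm7sf2 at 349.9 CPM (256 to 288.1 CPM), and sham male animal 9 for Ebp at 129.8 CPM (104 to 112 CPM). Sham female animal 2 was lowest for Mylip at 5.46 CPM (8.11 to 9.52 CPM).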

How the results depend on the processing

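No paired analysis was possible because replicate numbers follow accession order and only name libraries. In females DESeq2 passed 28 genes and the fit of all 24 libraries 1 gene, in males DESeq2 passed 1, and averaged over sexes 105, none of them among the 28. Without 1 library each, the genes passed numbered 0 to 8 in females and 0 to 15 averaged over sexes. In males 5 of the 28 were above 0 without animals 13 to 16, and 9 to 18 without 1 library each.

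Signs turned for some values that had not passed the test, and the cause was not tested. Without animals 13 to 16 the values were 0.059 for Srebf2 in females, -0.32 for Insig2, -0.15 for Sqle, -0.019 for Idi1 and -0.14 for Cyp51 in males, 0.22 for Insig2 and 0.14 for Idi1 in the difference of responses, and -0.037 for Sqle averaged over sexes. Under limma-voom they were -0.061 for Insig2, -0.00935 for Sqle and -0.041 for Cyp51 in males, 0.089 for Idi1 in the difference and 0.00653 for Hmgcs1 averaged over sexes. Leaving out 1 library gave, in females, -0.071 to 0.034 for Srebf2, -0.073 to 0.21 for Sqle and -0.066 to 0.23 for Hmgcs1. In males it gave -0.17 to 0.27 for Insig2, -0.14 to 0.19 for Sqle, -0.28 to 0.012 for Hmgcs1 and -0.0797 to 0.14 for Cyp51. In the difference it gave -0.13 to 0.20 for Sqle and -0.19 to 0.12 for Idi1, and averaged over sexes -0.18 to 0.043 for Insig2, -0.036 to 0.13 for Sqle and -0.11 to 0.046 for Hmgcs1.

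At an unadjusted p under 0.05 in females, 5 of the 28 passed with DESeq2 and 7 with limma-voom, against 2 with edgeR (9.96% of all genes). The share of all genes at that mark was not counted for DESeq2 or limma-voom, so their counts have no background beside them. Without 1 library each, 17 to 20 of the 28 passed the sex contrast in sham animals and 20 to 21 in exposed animals. With DESeq2 and limma-voom 21 passed in sham animals, Msmo1 and Idi1 being added, and without the low-count filter 17 passed. The smallest exposure effect that 6 animals a group could detect was not computed. Exposure effects of a size that lay within the intervals given were not excluded.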
